A study of Homo sapiens with 18 samples.

Results

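RNA levels of ligands and regulators of the TGF-beta and BMP pathway were followed as 10 genes, chosen by gene name: the TGF-beta ligands TGFB1, TGFB2 and TGFB3, the activin subunit gene INHBA, the BMP ligand BMP4, the receptor TGFBR2, the intracellular inhibitor SMAD7, and the secreted proteins FST, FSTL1 and GREM1. The choice was made with earlier results of these data known. Counts of members called, set beside shares of all genes, are therefore descriptive only. All 10 had a row among the 30954 gene IDs of the H2052 table, and 8 of them (all but GREM1 and FST) had one among the 19284 of the H226 table. Ligands of this family are secreted as dimers and bind pairs of type I and type II receptor kinases, which phosphorylate SMAD proteins that then enter the nucleus and bind DNA. TGF-beta and activin signal mainly through one set of SMADs and BMPs through another, SMAD7 blocks the receptors from within the cell, and follistatin and gremlin bind activins and BMPs outside it. Mesothelioma cells are known to secrete TGF-beta and activin.

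NCI-H2052 (H2052) and NCI-H226 (H226) are human pleural mesothelioma lines with Hippo pathway mutations, and VT107 blocks the auto-palmitoylation of TEADs, the transcription factors through which YAP and TAZ reach DNA. PolyA RNA was sequenced from 6 groups of 3 libraries, which the study calls biological replicates: NF1 mutant H2052 cells, parental H2052 cells and H226 cells, each with 1 µM VT107 or the matching volume of DMSO for 24 h. The comparisons ask how TEAD inhibition changes the transcriptome and whether loss of NF1, a negative regulator of RAS, changes it or the response. NF1 was mutated with CRISPR/Cas9, and neither the guide used for these libraries nor whether the cells were 1 clone or a pool is given in the sources used here; H226 cells were not mutated.

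The total of gene counts ran from 3285363 to 4806065 per library in NF1 mutant cells in VT107 and 3988479 to 5489092 in DMSO, from 12424914 to 13346712 in parental cells in VT107 and 10950284 to 13418485 in DMSO, and from 1568127 to 1726786 in H226 cells in VT107 and 1387223 to 1542929 in DMSO. NF1 itself had 29 to 89 counts per library in NF1 mutant cells in VT107 and 70 to 77 in DMSO, against 361 to 853 in parental cells in VT107 and 377 to 867 in DMSO. Scaled to library size as CPM, it ran from 8.34 to 18.0 in NF1 mutant cells in VT107 and 12.5 to 17.8 in DMSO. Parental cells had 26.0 to 59.6 CPM of NF1 in VT107 and 34.1 to 67.1 in DMSO. Some libraries stood apart from the rest of their group. NF1 mutant VT107 replicate 1 correlated with the other 11 H2052 libraries at only 0.740 to 0.833 (log2 CPM, counts scaled to library size, over 11432 genes), and VIM had 1136 counts there against 6338 and 10185 in the other replicates of the group. The parental libraries of replicate 3 correlated at 0.921 to 0.951 with their own groups, lower than the 0.985 and 0.993 between replicates 1 and 2, and at 0.972 with each other. MALAT1, a nuclear RNA, had 471 to 734 counts in the NF1 mutant libraries and 31015 to 114950 in the parental ones, and the column names of the 2 genotypes carry different prefixes, so genotype and preparation of the libraries cannot be told apart. Mesothelial markers (8 of 8 with a row) summed to 4000 to 7800 CPM in NF1 mutant and 2303 to 4000 CPM in parental libraries, though CALB2 had at most 5 counts in any NF1 mutant library. Most of each sum was keratin RNA, with KRT19 in DMSO at 2432 to 3475 CPM in NF1 mutant and 1063 to 2255 CPM in parental cells. The other markers did not follow the sum. In DMSO, MSLN was lower in NF1 mutant cells, at 16.4 to 18.1 against 20.1 to 23.4 CPM, and WT1 and PDPN overlapped. MSLN overlapped in VT107. UPK3B had at most 5 counts in NF1 mutant and 11 in parental libraries. Leukocyte markers (5 of 5 with a row) summed to 6.42 to 28.2 CPM in NF1 mutant and 2.63 to 17.2 CPM in parental libraries, most of it CD68, a lysosomal protein, with 25 to 219 counts per library; CD3E had 0 counts in all 12 libraries, PTPRC at most 3, CD79A at most 10 and CD14 at most 12. Endothelial markers (3 of 4 with a row) summed to at most 0.489 CPM in NF1 mutant and 0.865 CPM in parental libraries, with VWF at 0 counts in all 12, CDH5 at most 2 and KDR at most 10.

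The plot of levels by library shows the 10 genes in H2052 cells. CPM, counts per 1000000 with TMM scaling, were computed from the counts. Per kilobase of exon, the order of the ligands in NF1 mutant cells in DMSO was TGFB2 at 6.89 ± 0.97, TGFB1 at 5.88 ± 0.60, BMP4 at 1.28 ± 0.015, INHBA at 0.49 ± 0.055 and TGFB3 at 0.23 ± 0.028 CPM per kilobase (SD, n = 3). Only the SD ranges of the first 2 overlapped. FST and FSTL1 were the most abundant of the 10 genes in parental cells in DMSO, at 51.6 ± 25.8 and 50.2 ± 5.62 CPM per kilobase (SD, n = 3), and did not differ beyond their spread. Without division by length, FST had 153 ± 76.6 and FSTL1 438 ± 49.0 CPM there. The order per kilobase thus depends on the exon lengths, and the kit is not given in the sources used here. TGFB2 followed at 10.5 ± 0.32 CPM per kilobase and was the most abundant of the 3 TGF-beta ligands. TGFBR2 had 7.17 ± 1.25 CPM per kilobase, and its SD range overlapped those of INHBA at 4.38 ± 3.88 and of TGFB1 at 3.84 ± 2.26. BMP4 at 3.57 ± 0.29 did not differ from these last 2 beyond their spread. TGFB3, SMAD7 and GREM1 were the scarcest, at 0.34 ± 0.20, 0.24 ± 0.12 and 0.092 ± 0.15 CPM per kilobase, each within the spread of the next.

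**Figure D1:**
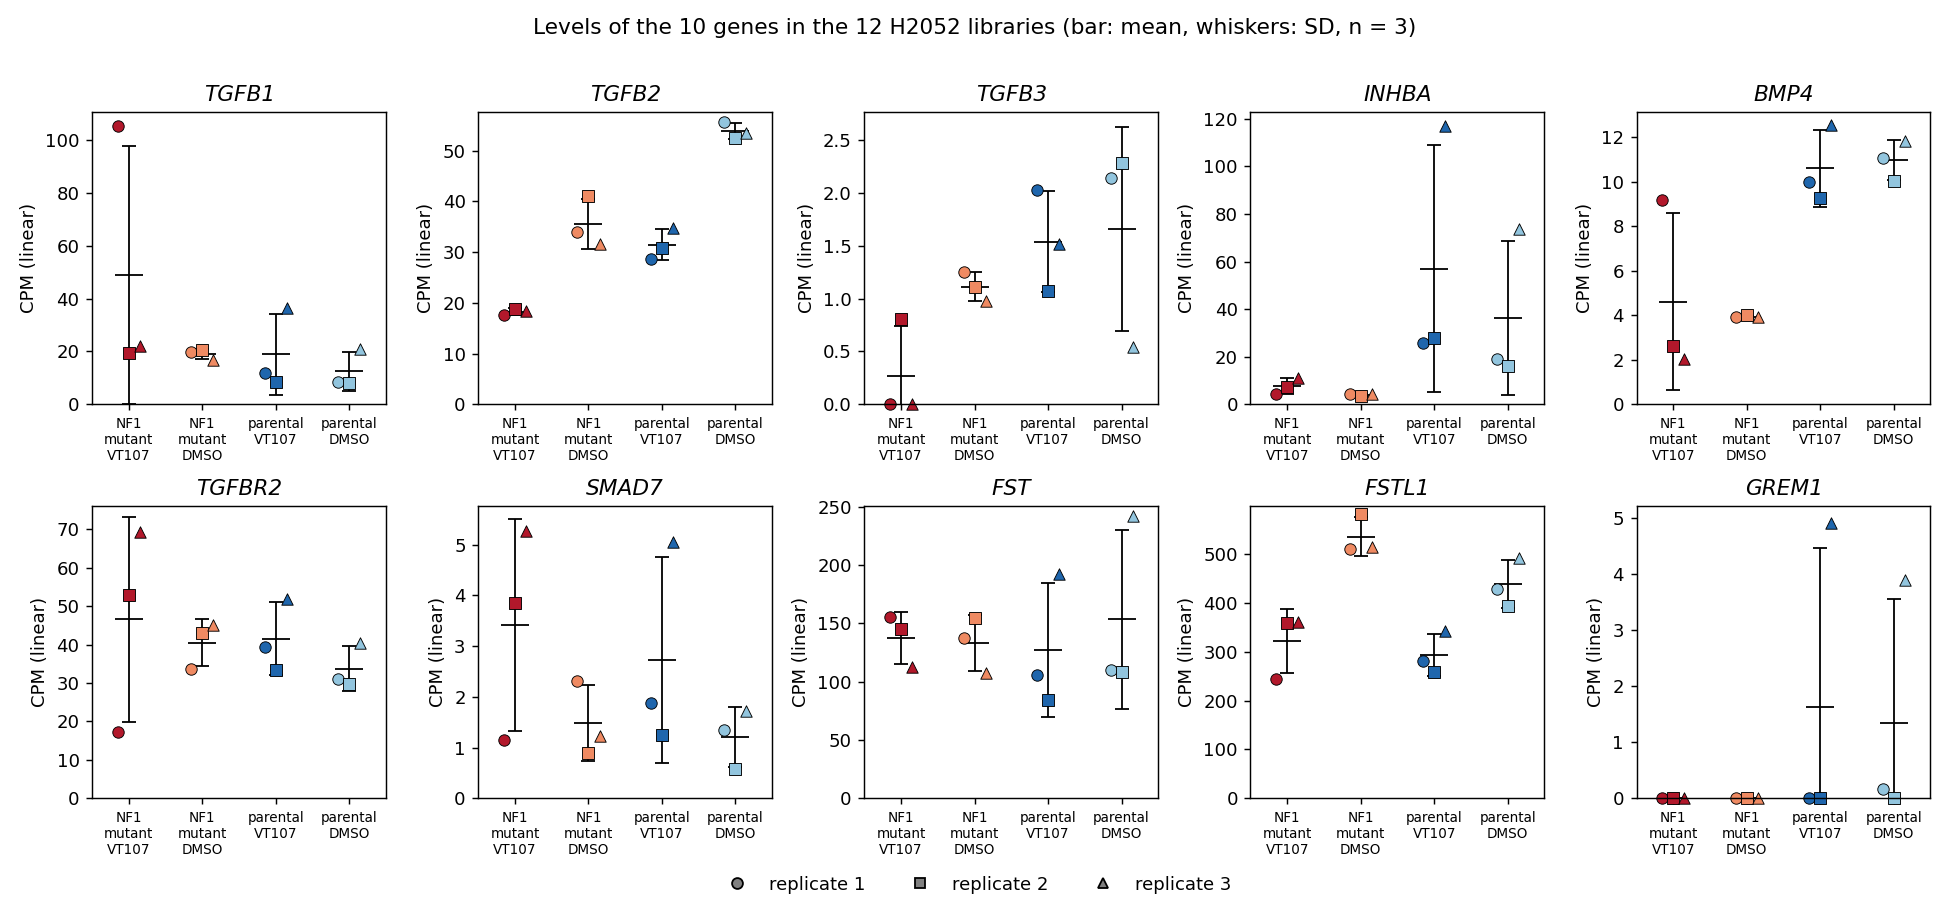
CPM of the 10 genes in the 12 H2052 libraries, on linear axes of their own. Points are libraries with a shape for the replicate number, bars are means and whiskers SD (n = 3, cut at 0). TGFB2 and FSTL1 lie lower in VT107 than in DMSO in both genotypes with no overlap, INHBA and BMP4 lie lower in NF1 mutant than in parental cells, and GREM1 exceeds 1 CPM in the parental libraries of replicate 3 alone.

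With VT107, TGFB2 and FSTL1 fell in NF1 mutant H2052 cells when the library that stood apart, VT107 replicate 1, was left out. That fit was singled out after seeing the data. Each gene was called by edgeR in 1 of 6 fits with a single library left out. Neither was called with all libraries kept. TGFB2 and FSTL1 also fell and INHBA rose in parental cells when the replicate number was kept in the fit, and there SMAD7, TGFB1, TGFBR2, TGFB3, BMP4 and FST did not pass the test. In NF1 mutant cells edgeR's quasi-likelihood test (p adjusted by Benjamini-Hochberg, called under 0.05) called 0 of 11605 genes (0%) and 0 of 8 members, with 623 genes at an unadjusted p under 0.05, and DESeq2 called 10 higher (0.0862%) and 10 lower (0.0862%) and voomWithQualityWeights 150 (1.29%). Leaving out NF1 mutant VT107 replicate 1 raised this to 109 genes higher (0.876%) and 89 lower (0.715%), among them 2 members, both lower. Of the 12891 genes tested in parental cells, edgeR called 0 (0%) without the replicate number, with 474 at an unadjusted p under 0.05, while DESeq2 called 32 (0.258%) and voomWithQualityWeights 9 higher (0.0698%) and 9 lower (0.0698%). With the replicate number as a block edgeR called 215 genes (1.67%), 109 higher (0.846%) and 106 lower (0.822%). Of the 9 members tested, 1 was called higher and 2 lower in the block fit, and 0 without it. Markers of other cell types were also compared between VT107 and DMSO. CD68 was not called in NF1 mutant cells with all libraries, nor in parental cells with the block. CD68 had 11.9 to 26.4 CPM in NF1 mutant cells in VT107, against 6.07 to 7.99 CPM in DMSO, with no overlap (log2 fold change 1.37, adjusted p = 0.773), and 4.11 to 15.8 CPM in parental cells in VT107, against 2.35 to 8.95 CPM in DMSO (0.82 with the block, adjusted p = 0.092). The fibroblast marker PDGFRA rose in parental cells with the block, by 1.10 on the log2 scale (adjusted p = 0.015), at 24.2 to 83.2 CPM in VT107, against 13.7 to 29.2 CPM in DMSO, and had a log2 fold change of 0.19 in NF1 mutant cells (adjusted p = 0.91). The 4 fibroblast markers summed to 146 to 280 CPM in NF1 mutant cells in VT107, against 191 to 195 CPM in DMSO, and to 117 to 262 CPM in parental cells in VT107, against 96.5 to 154 CPM in DMSO. The part of these markers in the results was not tested. In these bulk libraries less RNA per cell and fewer cells with a given RNA cannot be told apart. The block values are given because same-numbered parental libraries departed alike from the averages of their groups, with correlations of 0.613, 0.488 and 0.795. For replicates 1 and 2 this does not show pairing by number. Their correlations across numbers, 0.607 and 0.517, were about as high, and replicate 3 stood apart in both groups.

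TGFB2 encodes transforming growth factor beta 2 (ENSG00000092969, chromosome 1 from 218519577 to 218617961, plus strand, hg19). It had 17.5, 18.8 and 18.5 CPM in NF1 mutant cells in VT107, against 33.9, 41.1 and 31.5 CPM in DMSO. Parental cells had 28.7, 30.9 and 34.8 CPM in VT107, against 55.6, 52.5 and 53.4 CPM in DMSO. All 3 VT107 libraries lay below all 3 DMSO libraries in each genotype, and neither NF1 mutant VT107 replicate 1 nor the parental libraries of replicate 3 stood out for this gene. In NF1 mutant cells the log2 fold change was -0.95 (standard error, SE, 0.24; edgeR adjusted p = 0.773), and -0.92 without VT107 replicate 1 (SE 0.18, adjusted p = 0.0214). In parental cells it was -0.76 with the block (SE 0.11, adjusted p = 0.0167) and -0.75 without it (SE 0.15, adjusted p = 0.999). It was -0.82 without a block when both libraries of replicate 3 were left out, a choice made after seeing the data (adjusted p = 0.035); 44 of 13381 genes (0.329%) were then called, 22 of them lower (0.164%). The VT107 over DMSO ratio of same-numbered libraries was 0.516, 0.589 and 0.652 in parental cells.

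TEAD factors bind the sequence GGAATG, and the promoters of the 10 genes (250 bases before to 50 after each start) were searched for it on both strands, and likewise for TGANTCA, the sequence bound by AP-1 factors; neither motif's letters overlap the other's in these promoters. All 10 genes matched, with 17 RefSeq promoters (GRCh38.p14), of which 2 held GGAATG and 2 held TGANTCA; over all 35116 promoters of the table, 14% held the first and 7.71% the second. GGAATG was found in the promoter of TGFB2 and in 1 of 3 promoters of BMP4, both times as its reverse complement CATTCC, and TGANTCA in FST and in 1 of 2 promoters of TGFBR2. The promoters of TGFB2 and FSTL1, the genes lower in VT107 in both genotypes, and of BMP4, which did not pass the VT107 test, are shown with CATTCC in capitals, at chr1:218345086-218345385 (plus strand), chr3:120450943-120451242 (minus strand) and chr14:53953346-53953645 (minus strand) on GRCh38.p14.
TGFB2: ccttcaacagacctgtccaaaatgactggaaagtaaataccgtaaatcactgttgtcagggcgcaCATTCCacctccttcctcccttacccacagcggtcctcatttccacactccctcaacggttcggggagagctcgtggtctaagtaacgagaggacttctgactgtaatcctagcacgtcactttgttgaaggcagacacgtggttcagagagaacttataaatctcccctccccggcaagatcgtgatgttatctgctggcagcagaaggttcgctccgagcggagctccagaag
FSTL1: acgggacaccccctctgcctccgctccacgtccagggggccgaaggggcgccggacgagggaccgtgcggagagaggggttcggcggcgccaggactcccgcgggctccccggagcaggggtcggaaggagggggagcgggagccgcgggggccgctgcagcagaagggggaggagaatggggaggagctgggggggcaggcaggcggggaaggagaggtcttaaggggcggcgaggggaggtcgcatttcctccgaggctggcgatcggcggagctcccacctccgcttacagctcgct
BMP4: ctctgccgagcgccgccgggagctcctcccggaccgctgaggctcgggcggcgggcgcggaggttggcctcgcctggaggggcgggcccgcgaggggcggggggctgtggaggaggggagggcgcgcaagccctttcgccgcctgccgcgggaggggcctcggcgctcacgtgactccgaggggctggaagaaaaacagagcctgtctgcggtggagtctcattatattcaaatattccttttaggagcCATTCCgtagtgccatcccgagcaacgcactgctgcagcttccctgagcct
The match begins 185 bases before the start of TGFB2 and 1 base before that of BMP4, and the window of FSTL1 holds none. These are matches of letters, and binding was not measured here.

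INHBA encodes the beta A subunit, which pairs with itself to form activin A (ENSG00000122641, chromosome 7 from 41724712 to 41742706, minus strand). It had 4.31, 7.48 and 11.1 CPM in NF1 mutant cells in VT107, against 4.28, 3.55 and 4.40 CPM in DMSO. VT107 replicate 1 lay among the DMSO libraries and the other VT107 libraries above all of them. The log2 fold change there was 0.91 (SE 0.40, edgeR adjusted p = 0.773), and 1.17 without VT107 replicate 1 (SE 0.31, adjusted p = 0.0798). Parental cells had 26.0, 28.0 and 117 CPM in VT107, against 19.3, 16.2 and 73.5 CPM in DMSO. The libraries of replicate 3 were far above the others in both groups, so the groups overlapped, but within numbers 1, 2 and 3 VT107 was at 1.35, 1.73 and 1.59 times DMSO. INHBA rose in parental cells with the block, by 0.65 on the log2 scale (SE 0.11, edgeR adjusted p = 0.0263). Without the block the log2 fold change was 0.67 (SE 0.79, adjusted p = 0.999), and it was 0.64 without both libraries of replicate 3 (SE 0.14, adjusted p = 0.135). With 1 library left out and no block it ran from -0.42, without VT107 replicate 3, to 1.73, without DMSO replicate 3.

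TGFB1, the ligand that gave the family its name (ENSG00000105329, chromosome 19 from 41836813 to 41859831, minus strand), had 105, 19.6 and 21.96 CPM in NF1 mutant cells in VT107, against 19.6, 20.7 and 16.9 CPM in DMSO. Parental cells had 12.02, 8.30 and 36.5 CPM in VT107, against 8.56, 7.90 and 20.9 CPM in DMSO. The groups overlapped in both genotypes, with 1 library far above the rest in each VT107 group. The log2 fold change in NF1 mutant cells was 1.36 (SE 0.64, edgeR adjusted p = 0.773) and 0.13 without VT107 replicate 1 (SE 0.19, adjusted p = 0.829), and in parental cells it was 0.51 with the block (SE 0.17, adjusted p = 0.176). TGFB3, the third isoform, had 0 to 7 counts per library in NF1 mutant and 6 to 32 in parental cells, at most 2.28 CPM; its log2 fold change in parental cells was -0.01 with the block (SE 0.46), and it was not tested in NF1 mutant cells.

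BMP4, a ligand of the BMP receptors (ENSG00000125378, chromosome 14 from 54416454 to 54425479, minus strand), had 9.20, 2.63 and 2.05 CPM in NF1 mutant cells in VT107, against 3.92, 3.997 and 3.91 CPM in DMSO. VT107 replicate 1 lay above and the other VT107 libraries below all DMSO libraries. The log2 fold change of 0.21 (SE 0.56, edgeR adjusted p = 0.898) became -0.71 without it (SE 0.38, adjusted p = 0.427). Parental cells had 9.99, 9.29 and 12.5 CPM in VT107, against 11.1, 10.0 and 11.8 CPM in DMSO. The groups overlapped, and the log2 fold change was -0.04 with the block (SE 0.16, adjusted p = 0.925).

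TGFBR2, the type II receptor that binds TGF-beta (ENSG00000163513, chromosome 3 from 30647994 to 30735634, plus strand), had 17.2, 53.0 and 69.4 CPM in NF1 mutant cells in VT107, against 33.5, 43.1 and 44.98 CPM in DMSO. Parental cells had 39.5, 33.4 and 51.8 CPM in VT107, against 30.9, 29.8 and 40.5 CPM in DMSO. VT107 lay above DMSO within each parental number, while the groups overlapped in both genotypes. The log2 fold change was 0.22 in NF1 mutant cells (SE 0.47, edgeR adjusted p = 0.876), or 0.61 without VT107 replicate 1 (SE 0.17, adjusted p = 0.0998), and 0.31 in parental cells with the block (SE 0.11, adjusted p = 0.184). SMAD7, the inhibitory SMAD that is itself induced by TGF-beta (ENSG00000101665, chromosome 18 from 46446223 to 46477081, minus strand), was counted 4 to 19 times per library in NF1 mutant cells in VT107 and 4 to 13 times in DMSO, and 14 to 70 times in parental cells in VT107 and 8 to 19 times in DMSO. Its log2 fold change was 1.18 in NF1 mutant cells (SE 0.61, adjusted p = 0.773), or 1.54 without VT107 replicate 1 (SE 0.44, adjusted p = 0.104), and 1.10 in parental cells with the block (SE 0.36, adjusted p = 0.156). SMAD7 had 1.15, 3.84 and 5.27 CPM in NF1 mutant cells in VT107, against 2.32, 0.888 and 1.22 CPM in DMSO. In parental cells the VT107 over DMSO ratio of same-numbered libraries was 1.40, 2.19 and 2.94.

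FSTL1 encodes a secreted glycoprotein related to follistatin (ENSG00000163430, chromosome 3 from 120111140 to 120170100, minus strand). It had 245, 360 and 361 CPM in NF1 mutant cells in VT107, against 510, 581 and 514 CPM in DMSO. Parental cells had 280.0, 259 and 342 CPM in VT107, against 429, 394 and 491 CPM in DMSO. The groups did not overlap in either genotype, as for TGFB2. The log2 fold change in NF1 mutant cells was -0.72 (SE 0.24, edgeR adjusted p = 0.773), and -0.56 without VT107 replicate 1 (SE 0.12, adjusted p = 0.0275). FSTL1 fell by 0.56 on the log2 scale in parental cells with the block (SE 0.11, adjusted p = 0.0391). Without the block the log2 fold change there was -0.56 (SE 0.18, adjusted p = 0.999), and without replicate 3 it was -0.58 (SE 0.12, adjusted p = 0.115). VT107 and DMSO libraries did not overlap for 16% of genes tested in NF1 mutant and 10.7% in parental cells, and for 2 members in each, TGFB2 and FSTL1.

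FST encodes follistatin, which binds and neutralises activin (ENSG00000134363, chromosome 5 from 52776239 to 52782964, plus strand). It had 155, 145 and 112 CPM in NF1 mutant cells in VT107, against 137, 155 and 107 CPM in DMSO. Parental cells had 106, 83.8 and 192 CPM in VT107, against 110.1, 108 and 242 CPM in DMSO. The groups overlapped in both genotypes, and the log2 fold change was 0.06 in NF1 mutant cells (SE 0.25, edgeR adjusted p = 0.939) and -0.23 in parental cells with the block (SE 0.11, adjusted p = 0.306). GREM1 encodes gremlin, a secreted BMP antagonist (ENSG00000166923, chromosome 15 from 33010175 to 33026870, plus strand). It had 0 counts in all 6 NF1 mutant libraries, and in parental cells 0, 0 and 68 counts in VT107, against 2, 0 and 43 in DMSO. A count of 0 allows up to 3 counts, and GREM1 did not pass the filter on low counts in any comparison.

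**Figure D2:**
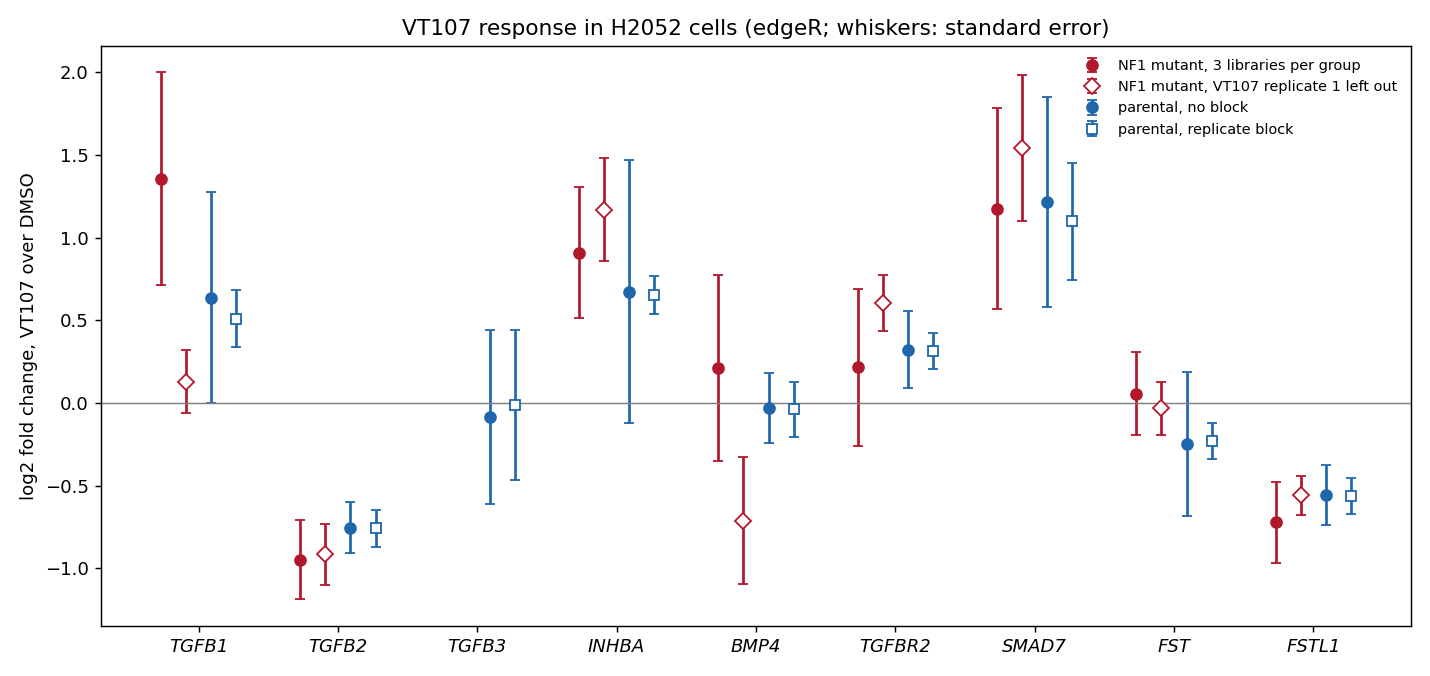
Log2 fold change of VT107 over DMSO for 9 members in H2052 cells, with the standard error from edgeR. Filled circles are fits without a block, squares the parental fit with the replicate block and diamonds the NF1 mutant fit without VT107 replicate 1; TGFB2 lies between -0.95 and -0.75 and FSTL1 between -0.72 and -0.56 in all 4 fits, while TGFB1 and BMP4 move with the library left out. TGFB3 was tested in parental cells only.

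Several of these genes stood high together in the parental libraries of replicate 3. INHBA was there at 4.33 times the mean of replicates 1 and 2 in VT107, and at 4.14 times in DMSO. For TGFB1 the ratios were 3.60 in VT107 and 2.54 in DMSO, and for FST 2.03 and 2.22. SMAD7 reached 3.22 in VT107 and 1.79 in DMSO, while TGFB2 stayed at 1.17 and 0.988 and FSTL1 at 1.27 and 1.19. A ratio above 2 in both groups was seen for 3 of the 9 members, against 3.77% of the 12891 genes. NF1 mutant VT107 replicate 1 was at 5.06 times the mean of replicates 2 and 3 for TGFB1 and 3.93 times for BMP4, and at 0.252 for SMAD7 and 0.282 for TGFBR2; 19.7% of genes lay above 2 and 31.1% below 0.5 there. These ratios describe single libraries and were not tested.

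**Figure D3:**
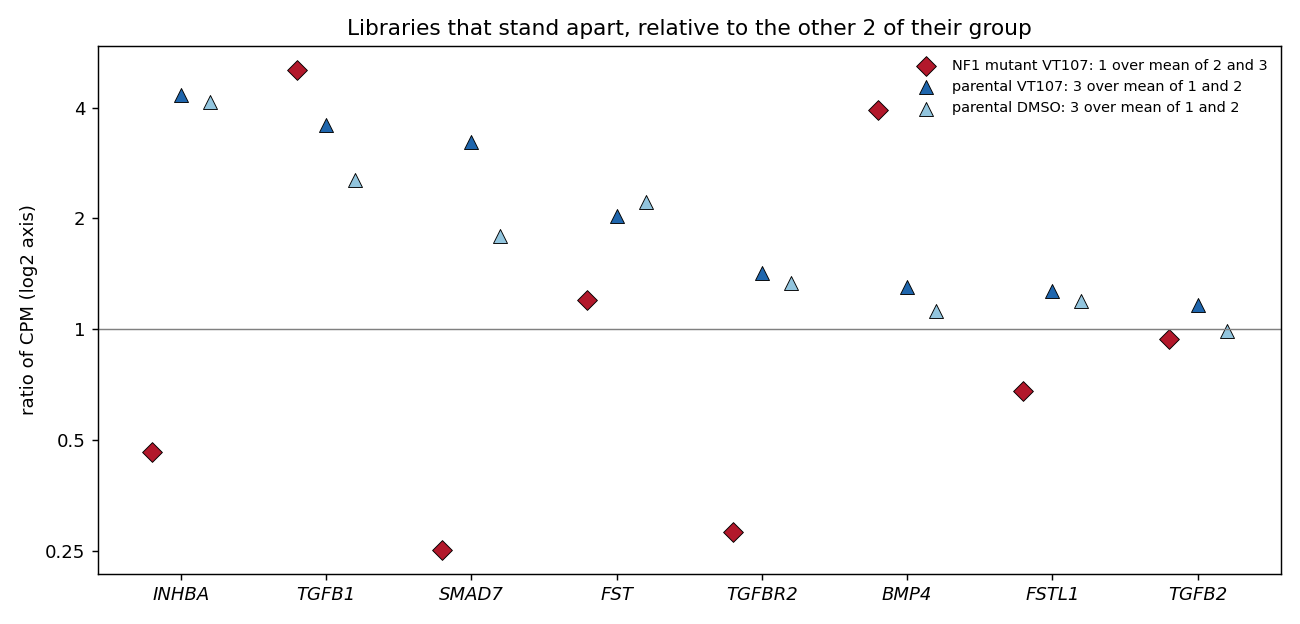
Ratio of CPM, on a log2 axis, of a library that stands apart to the mean of the other 2 libraries of its group, for 8 members. Diamonds are NF1 mutant VT107 replicate 1, dark triangles parental VT107 replicate 3 and light triangles parental DMSO replicate 3; the triangles reach 4.33 for INHBA and stay near 1 for TGFB2.

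The VT107 responses of the 2 genotypes were compared directly, as the difference of log2 fold changes, NF1 mutant minus parental. No member passed the test, and 0 of 11432 genes (0%) did by edgeR, with 78 at an unadjusted p under 0.05 and 0 by DESeq2 and by voomWithQualityWeights. For TGFB2 the difference was -0.18 (95% interval -0.78 to 0.41), with responses of -0.95 in NF1 mutant and -0.75 in parental cells. For FSTL1 it was -0.16 (interval -0.82 to 0.51), and for TGFBR2 -0.10 (interval -1.30 to 1.10). The intervals for INHBA, from -1.87 to 2.36, TGFB1, from -1.34 to 2.80, BMP4, from -1.05 to 1.55, FST, from -0.81 to 1.42, and SMAD7, from -1.83 to 1.79, leave differences of more than 1 log2 unit undecided. The interval for TGFBR2 does the same. With NF1 mutant VT107 replicate 1 and both parental libraries of replicate 3 left out, a choice made after seeing the data, 0 of 12280 genes were called and the difference was -0.07 for TGFB2 (SE 0.22) and 0.04 for FSTL1 (SE 0.18).

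In DMSO, INHBA, BMP4 and TGFB2 were called lower in NF1 mutant than in parental cells in the fit of all 6 libraries, and 0 members were called higher there; without parental DMSO replicate 3, TGFB1, FSTL1, TGFBR2 and FST were called higher. These 3 of 9 members compare with 1863 genes lower (14.9%) and 1557 higher (12.5%) of 12475 tested by edgeR. INHBA had 4.28, 3.55 and 4.40 CPM in NF1 mutant cells, against 19.3, 16.2 and 73.5 CPM in parental cells. The parental library of replicate 3 was the highest, and the other parental libraries were still above all NF1 mutant ones. INHBA fell by 3.14 on the log2 scale (SE 0.62, adjusted p = 0.00711), or by 2.11 without parental DMSO replicate 3 (SE 0.21, adjusted p = 6.57e-08). BMP4 had 3.92, 3.997 and 3.91 CPM in NF1 mutant cells, against 11.1, 10.0 and 11.8 CPM in parental cells, from 16 to 22 and 131 to 141 counts. It fell by 1.47 (SE 0.22, adjusted p = 0.00188), with no overlap. TGFB2 had 33.9, 41.1 and 31.5 CPM in NF1 mutant cells, against 55.6, 52.5 and 53.4 CPM in parental cells, again with no overlap, and fell by 0.59 (SE 0.15, adjusted p = 0.0188). Its adjusted p was above 0.05 when parental DMSO replicate 1 or 2 or NF1 mutant DMSO replicate 1 or 3 was left out, at 0.0564, 0.0518, 0.0883 and 0.0788, with a log2 fold change between -0.61 and -0.51.

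Among the members not called in DMSO, FSTL1 had 510, 581 and 514 CPM in NF1 mutant cells, against 429, 394 and 491 CPM in parental cells, with no overlap, and a log2 fold change of 0.30 (SE 0.13, edgeR adjusted p = 0.11). TGFB1 had 19.6, 20.7 and 16.9 CPM in NF1 mutant cells, against 8.56, 7.90 and 20.9 CPM in parental cells, and the parental library of replicate 3 was the highest of all. The groups did not overlap for 4 members and for 44.6% of all genes tested. Leaving out parental DMSO replicate 3 took the genes called to 3105 higher (24.7%) and 3304 lower (26.3%) of 12585, and the members called to 4 higher and 4 lower. TGFB1 was then higher by 1.22 on the log2 scale (SE 0.18, adjusted p = 7.9e-06), FSTL1 by 0.38 (SE 0.09, adjusted p = 0.00174), TGFBR2 by 0.41 (SE 0.13, adjusted p = 0.0157) and FST by 0.29 (SE 0.12, adjusted p = 0.0453). FST had a log2 fold change of -0.20 with that library (SE 0.31). TGFB3 joined INHBA, BMP4 and TGFB2 among the lower ones at -0.96 (SE 0.39, adjusted p = 0.046), and SMAD7 was not called in either fit.

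**Figure D4:**
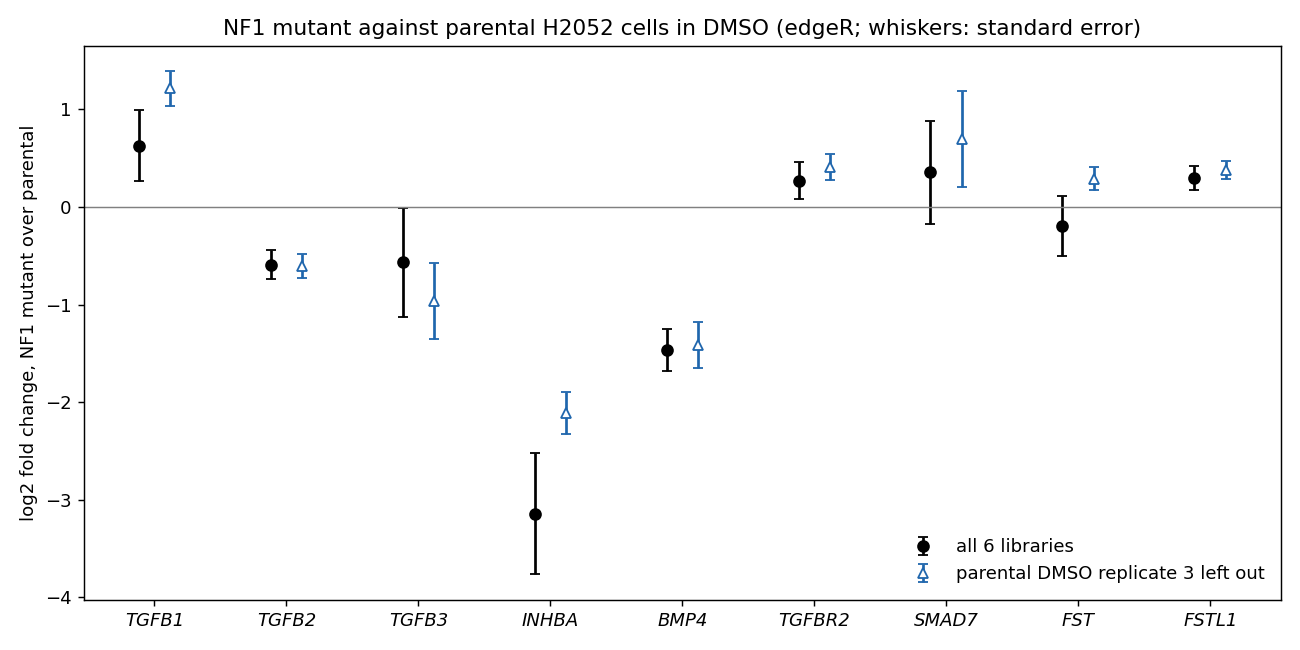
Log2 fold change of NF1 mutant over parental H2052 cells in DMSO for 9 members, with the standard error from edgeR. Circles use all 6 libraries and triangles leave out parental DMSO replicate 3; INHBA, BMP4 and TGFB2 lie below 0 in both, and FST changes side.

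Under VT107, edgeR called 0 of 8 members and 0 of 11654 genes (0%) between NF1 mutant and parental cells. At an unadjusted p under 0.05 there were 1945 genes, while DESeq2 called 682 (5.97%) and voomWithQualityWeights 3599 (30.9%). INHBA had 4.31, 7.48 and 11.1 CPM in NF1 mutant cells, against 26.0, 28.0 and 117 CPM in parental cells (log2 fold change -2.92, SE 0.69, adjusted p = 0.116). TGFB2 had 17.5, 18.8 and 18.5 CPM in NF1 mutant cells, against 28.7, 30.9 and 34.8 CPM in parental cells (log2 fold change -0.81, SE 0.31, adjusted p = 0.252). BMP4 had 9.20, 2.63 and 2.05 CPM in NF1 mutant cells, against 9.99, 9.29 and 12.5 CPM in parental cells (log2 fold change -1.24, SE 0.56, adjusted p = 0.304). These 3 members did not overlap between the groups, against 25.5% of genes tested. Without NF1 mutant VT107 replicate 1 alone, BMP4 was called lower at -2.17 (adjusted p = 0.0464, with 1.19% of 12573 genes called lower). With that library and parental VT107 replicate 3 left out, again a choice made after seeing the data, 1717 genes were called higher (13.5%) and 2129 lower (16.8%) of 12702. INHBA was then lower by a log2 fold change of -1.57 (adjusted p = 0.000391), BMP4 by -2.01 (adjusted p = 0.00106) and TGFB2 by -0.68 (adjusted p = 0.0194), while TGFB1 at 1.02 (adjusted p = 0.00909), SMAD7 at 1.49 (adjusted p = 0.0172) and TGFBR2 at 0.74 (adjusted p = 0.0105) were higher.

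The wider pathway was described by 8 lists with 90 further genes, of which 88 had a row in the H2052 table. The lists too were chosen with earlier results of these data known, so shares of all genes beside their counts do not test them. In DMSO, 59 were tested between the genotypes, and 6 were higher and 12 lower in NF1 mutant cells, where 12.5% and 14.9% of all genes were, with a median log2 fold change of -0.25 against -0.01 over all genes tested. Without parental DMSO replicate 3 these counts were 10 and 19, with 24.7% and 26.3% of all genes. Among the other TGF-beta, activin and GDF ligands 2 of 3 were lower, namely INHBB, the beta B subunit of activins, at 16.5 ± 3.83 CPM in NF1 mutant and 51.5 ± 14.1 CPM in parental cells (SD, n = 3 each; log2 fold change -1.63, edgeR adjusted p = 0.00234), and GDF15, a stress-induced member of the family, at 92.8 ± 11.8 CPM in NF1 mutant and 170 ± 9.68 CPM in parental cells (log2 fold change -0.86, adjusted p = 0.00221). Of 9 receptors, the co-receptor ENG (0.62) and the type I receptor TGFBR1 (0.46) were higher and the BMP type II receptor BMPR2 (-0.67) was lower. Of 9 genes of latency and activation, LTBP3 (0.64), which holds latent TGF-beta, was higher, and LTBP2 (-0.85), the microfibril gene FBN1 (-1.001) and the activator THBS1 (-0.42) were lower.

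Of 11 SMADs and their inhibitors, the ubiquitin ligases SMURF1 (-0.67) and SMURF2 (-0.67) and the corepressor SKIL (-0.90) were lower and its relative SKI (0.44) higher. Of 11 TGF-beta response genes, CTGF (-0.98) and TAGLN (-0.69) were among those lower and COL1A1 (0.72) was higher. Fibroblast markers, which include COL1A1, summed to 191 to 195 CPM in NF1 mutant and 96.5 to 154 CPM in parental cells in DMSO; PDGFRA was present at 18.3 to 24.4 CPM in NF1 mutant and 13.7 to 29.2 CPM in parental cells and LUM and DCN were below 1 CPM in both, and the part of these markers in the result was not tested. None of 7 further antagonists and neither of 2 BMP ligands passed the test, and 1 of 8 BMP response genes, ATOH8, did (1.17, adjusted p = 0.0104).

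For VT107 against DMSO in NF1 mutant cells, edgeR called 0 of 56 pathway genes, and 5 of 59 higher and 2 lower without VT107 replicate 1, where 0.876% of all genes were higher and 0.715% lower. In parental cells 0 of 59 were called without the block, and 4 rose and 3 fell with it, where 0.846% of all genes rose and 0.822% fell. These 7 were named after their values were seen. As the lists were chosen with earlier results of these data known, the shares of all genes do not test them. The ligands GDF15 (0.88, adjusted p = 0.00853) and GDF5 (0.75, adjusted p = 0.0391) and the BMP response genes ID1 (0.71, adjusted p = 0.0202) and ID2 (0.85, adjusted p = 0.027) rose on the log2 scale. CTGF (-1.39, adjusted p = 0.00423), THBS1 (-1.04, adjusted p = 0.00646) and the membrane-bound BMP regulator CRIM1 (-0.76, adjusted p = 0.0368) fell. The median log2 fold change of the 59 was 0.15 without the block, against 0.01 over all genes tested. Without the block and without replicate 3, 2 of 60 were higher and 2 lower, where 0.164% of all genes were higher and 0.164% lower.

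In H226 cells the rows of INHBA and FSTL1 fell with VT107, but they count the strand opposite to the gene. Strand was checked on genes that lie inside a gene of the other strand. The 56 pairs were chosen for an inner gene with at least 3000 counts over the parental H2052 libraries, 20 times those of the outer gene, and the inner gene also had the higher count in 56 of 56 in each of the 6 NF1 mutant libraries. Of the 43 pairs with rows in the H226 table, the outer gene had the higher count in 43 in each of the 6 H226 libraries. The H226 rows therefore hold reads of the strand opposite to the named gene, and ACTB had 1 to 8 counts. Of the 8 members with a row 6 were tested, and 2 were called lower and 0 higher, against 1339 rows lower (10.5%) and 1160 higher (9.09%) of 12765. The H226 rows had been kept by the authors' DESeq run of this same comparison. The shares and adjusted p here and below are therefore over preselected rows. The INHBA row had 8, 8 and 6 counts in VT107, against 77, 50 and 24 in DMSO, with no overlap (log2 fold change -2.96, SE 0.37, edgeR adjusted p = 3.31e-06). The FSTL1 row had 28, 19 and 16 counts in VT107, against 134, 128 and 106 in DMSO, also with no overlap (log2 fold change -2.76, SE 0.20, adjusted p = 1.59e-09).

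The INHBA locus holds 2 other rows, named after their values were seen. AC005027.3 (ENSG00000236310, chromosome 7 from 41706766 to 41744933, minus strand, hg19) contains the whole of INHBA on the same strand, and its row had 330, 354 and 330 counts in VT107, against 2190, 2166 and 1555 in DMSO (log2 fold change -2.75, SE 0.15, adjusted p = 2.17e-11). AC005027.4 (ENSG00000224116, chromosome 7 from 41733514 to 41818986, plus strand), named INHBA-AS1 in the reference gene table, shares 9193 bases with INHBA on the opposite strand, so that its row holds reads of the strand of INHBA. It had 135, 151 and 138 counts in VT107, against 852, 833 and 625 in DMSO (log2 fold change -2.65, SE 0.15, adjusted p = 2.17e-11). Rows of both strands at this locus were thus lower in VT107. Where their reads lie was not measured, so how much of the second row lies within INHBA is not known. In H2052 cells these rows had at most 5 and 3 counts.

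The other tested H226 rows did not pass. TGFBR2 had a log2 fold change of 0.28 (SE 0.16, edgeR adjusted p = 0.254), TGFB1 of -0.02 (SE 0.26, adjusted p = 0.976), TGFB2 of -0.07 from 1 to 5 counts per library (SE 0.63, adjusted p = 0.961) and SMAD7 of -0.60 (SE 0.35, adjusted p = 0.262). TGFB1 and TGFB3 are overlapped by TMEM91 and IFT43 on the opposite strand, so their rows may hold reads of these genes. TGFB3 and BMP4 had at most 5 and 2 counts and were not tested. The groups did not overlap for 3 of the 6 members tested, against 34.8% of rows. Of the 90 further pathway genes, 49 were tested and 8 rows were higher and 7 lower, where 9.09% and 10.5% of all rows were. The largest changes were in the rows of ITGB6 (2.06, adjusted p = 1.81e-08) and ITGB8 (1.77, adjusted p = 1.91e-08), named for integrin subunits that activate latent TGF-beta. These rows too hold reads of the strand opposite to the gene, so they do not measure the RNA of these integrins.

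**Figure D5:**
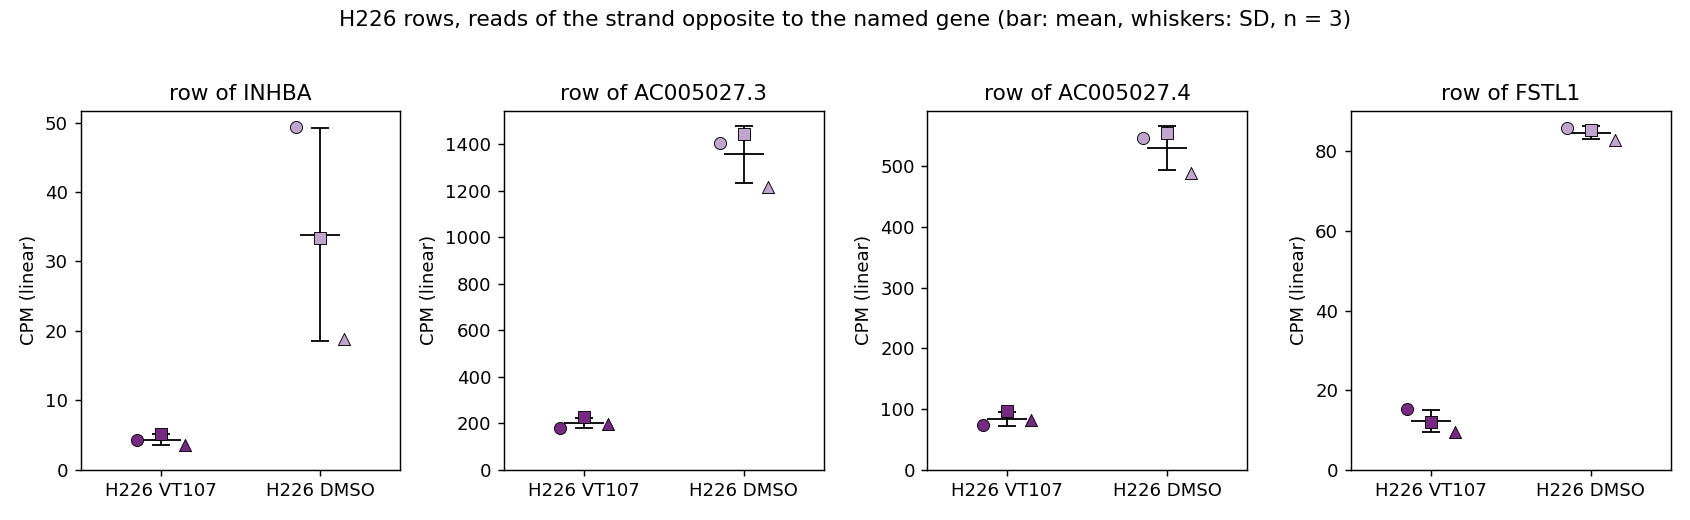
CPM of 4 rows in the 6 H226 libraries, on linear axes of their own, with VT107 left of DMSO. Points are libraries, bars means and whiskers SD (n = 3); each row holds reads of the strand opposite to the gene it is named for, and in all 4 the VT107 libraries lie below the DMSO libraries.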

How the data were processed

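Gene-level read counts of 18 libraries were used as deposited. The sources used here name bcl2fastq 2.20.0.422 and hg19 for the authors' processing, and the aligner, counter, annotation, strandedness and kit were not given in the sources used here. Each deposited value is a count of whole reads per gene without normalization; IDs listed more than once were added up here. The H226 table keeps rows whose corrected p was under 1 in a DESeq run by the authors, and the authors' log2 fold changes and p-values in it, per the file headers, were not used. A further 16 columns of siRNA samples match no sample described in the labels and stayed out. The members and lists were chosen with earlier results of these data known.

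Genes reaching 0.5 CPM in each library compared were TMM-normalized and tested by edgeR 4.0.16 (quasi-likelihood, R 4.3.3), with Benjamini-Hochberg adjustment over all genes tested and a threshold of 0.05. Standard errors divide the absolute log2 fold change by the root of F, and 95% intervals use the test's degrees of freedom. Pathway genes were named where the adjusted p was under 0.05, the mean log2 CPM at least 3 and the groups did not overlap, up to 4 per list; ATOH8, the genes of the block fit and the INHBA locus rows were added after their values were seen. Some pathway genes that were counted are not reported here by name. Libraries counted as paired by number where every same-number correlation of their deviations from group means was over 0.1. This held in parental H2052 cells, VT107 against DMSO (0.488 to 0.795), where replicates 1 and 2 also correlated across numbers (0.517 and 0.607). Alternatives were DESeq2 1.42.0, limma 3.58.1 (voomWithQualityWeights), RLE factors, no filter, a minimum of 10 counts in 2 libraries per group, the block, all 4 H2052 groups in 1 fit, rows without opposite-strand overlap (H226) and each library left out. Exon lengths are from GENCODE and served for levels per kilobase only.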

Additional observations from a re-analysis of the deposited data

How the results depend on the processing

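In edgeR with all libraries and no block, no member was called for VT107 in H2052 cells, and the calls there depend on how the libraries that stand apart are treated. For VT107 in parental cells, that fit called 0 genes and 0 members. The replicate block called 215 genes (1.67%) and 3 members, and DESeq2 32 (0.258%) and 1. With voomWithQualityWeights 18 (0.14%) and 1 were called, and without both libraries of replicate 3 it was 44 (0.329%) and 1. For VT107 in NF1 mutant cells, DESeq2 called 20 genes (0.172%), voomWithQualityWeights 150 (1.29%) and 2 members, and the fit of all 4 groups 3 genes (0.0259%). Leaving out single libraries gave 0 to 198 (1.59%) genes and 0 to 2 members. For NF1 mutant against parental in DMSO, 3420 genes (27.4%) and 3 of 9 members were called. These became 6554 (52.5%) and 6 with voomWithQualityWeights, and 886 (7.1%) and 1 in the fit of all 4 groups. Single libraries left out gave 1779 to 6409 (50.9%) genes and 2 to 8 members. In the fit of all 4 groups INHBA stayed called, while BMP4 (adjusted p = 0.0672) and TGFB2 (adjusted p = 0.089) did not. Under VT107, 0 genes and 0 of 8 members became 682 (5.97%) and 1 with DESeq2, and 196 (1.02%) and 1 without a filter. With voomWithQualityWeights they became 3599 (30.9%) and 6, and in the fit of all 4 groups 1285 (11%) and 2. Without NF1 mutant VT107 replicate 1 and parental VT107 replicate 3, 3846 (30.3%) and 6 were called. Single libraries left out gave 0 to 185 (1.47%) genes and 0 to 1 members. In H226, 2499 rows (19.6%) and 2 members became 1234 (19%) and 1 among rows without opposite-strand overlap, where fewer rows were tested and INHBA was not. The filter of 10 counts tested FSTL1 but not INHBA and called 1 member, with 24.9% of rows called. Single libraries left out gave 1645 to 2221 rows. The replicate block changed no other call of a member; in the other comparisons the numbers were shared labels only, with same-number correlations from -0.291 to 0.336.

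Values of members not called in the fit of all libraries without a block changed sign under some settings, among them INHBA for VT107 in parental cells, which rose with the block; the cause was not tested. With single libraries left out, log2 fold changes for VT107 in parental cells ran from -0.48 to 0.21 for TGFB3, -0.17 to 0.063 for BMP4, -0.68 to 0.26 for FST, -0.27 to 1.25 for TGFB1 and -0.42 to 1.73 for INHBA. In NF1 mutant cells they ran from -0.089 to 0.17 for FST, -0.71 to 0.53 for BMP4 and -0.20 to 0.61 for TGFBR2. Between genotypes in DMSO they ran from -0.17 to 0.70 for SMAD7 and -0.40 to 0.29 for FST, and under VT107 from -0.15 to 0.51 for FST, -0.11 to 1.09 for SMAD7 and -0.26 to 0.55 for TGFBR2. The difference of responses ran from -0.41 to 0.76 for SMAD7, -0.77 to 1.31 for INHBA, -0.17 to 0.73 for FST, -0.49 to 0.29 for TGFBR2, -0.49 to 1.62 for TGFB1, -0.68 to 0.59 for BMP4 and -0.24 to 0.0083 for FSTL1. In H226 TGFB1 ran from -0.19 to 0.13 and TGFB2 from -0.51 to 0.57. With voomWithQualityWeights, BMP4 was at -0.70 and FST at -0.079 for VT107 in NF1 mutant cells, FST at 0.25 between genotypes in DMSO, and H226 TGFB2 at 0.32 and TGFB1 at 0.0084; the difference of responses was 0.54 for SMAD7, -0.23 for TGFB1, -0.62 for BMP4, 0.018 for FSTL1 and 0.35 for TGFBR2. Without NF1 mutant VT107 replicate 1 and both parental libraries of replicate 3 that difference was 0.79 for SMAD7, -0.20 for TGFB1, -0.59 for BMP4, 0.044 for FSTL1 and 0.33 for TGFBR2. With the replicate block it was 0.033 for SMAD7, and TGFBR2 between genotypes under VT107 was at -0.035. DESeq2 gave 0.0074 for the SMAD7 difference, and the filter of 10 counts 0.0087 for H226 TGFB1. Few counts stand behind SMAD7, TGFB3 and GREM1, at most 70 in any H2052 library, and BMP4 in NF1 mutant cells, at most 32.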
